A study of Mus musculus with 3 samples.

Results

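The antigen presentation genes of mouse skin were followed through 2 days after cyclophosphamide in 10 genes. They are the MHC class II chains H2-Aa, H2-Ab1 and H2-Eb1 with their chaperone Cd74, the MHC class I heavy chains H2-K1 and H2-D1 with their light chain B2m, and the class I loading genes Tap1, Tap2 and Tapbp. They were chosen by name, from the function of the genes, but with earlier results of these data known. Each was looked for in the tables as the UniGene cluster whose tags match transcripts of that gene exactly. Of the 20595 clusters in any of the 3 tables, 9 were matched to these 10 genes, and Cd74 was not analysed here. The day 0 table listed 8 of the 9, and the tables of days 1 and 2 listed 9 each.

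The 3 groups were whole skin of male C57BL/6 mice of 2 months, without drug (day 0), and 1 and 2 days after intraperitoneal cyclophosphamide. The dose was 150 mg/kg (the sample labels write it per km), injected 9 days after depilation, so that skin of all 3 groups came from mice in induced hair growth. There was 1 library in each group. The treated skins were also 1 and 2 days further into hair growth, without untreated skin of the same age beside them, so drug and time cannot be told apart. The sources used here do not give how many mice stand behind a library. Each library is a count of 21-base tags, each a CATG site cut by NlaIII and the 17 bases after it, with 2731787 tags at day 0, 2859653 at day 1 and 2636804 at day 2. The label "skin" was set against markers picked after their values were seen: the epidermal keratin Krt5 was at 4713.09, 4965.52 and 5613.97 CPM (tags per 1000000 after scaling) and the dermal collagen Col1a1 at 378.33, 337.42 and 433.65 at days 0, 1 and 2.

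MHC class II molecules are pairs of an alpha and a beta chain that show peptides from the endosomes of dendritic cells, Langerhans cells, macrophages and B cells to CD4+ T cells. MHC class I molecules are a heavy chain with beta-2-microglobulin, made by nearly all nucleated cells, and show peptides that proteasomes cut in the cytosol to CD8+ T cells. The transporter Tap1-Tap2 carries those peptides into the endoplasmic reticulum, where tapasin (Tapbp) holds the empty class I molecule beside it. C57BL/6 mice make the class II pair I-A, from H2-Aa and H2-Ab1, but no I-E pair, because their alpha chain gene for it is not functional, while the gene of its beta chain, H2-Eb1, is still transcribed.

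The tags are shown first because the place of a tag in its transcript decides what a count of it stands for. The tag nearest the 3' end of a transcript is the one that the method is meant to keep. A tag further inside can be seen where the sites downstream of it were not cut, or were not in the molecule counted. Which of these applied to the inner tags here was not tested. The following tags carried most of the class II and loading counts, with the CATG site in capitals.
H2-Ab1: CATGgtactattgtatccacc
H2-Eb1: CATGtcctgcttggcccacat
H2-Aa: CATGctcagcctctgtggagg
Tap1: CATGcacacacaaacctggtt
Tap2: CATGtacggggatatgctgag
Tapbp: CATGgagttcactatgtctgt
B2m: CATGgctcgctcggtgaccct
All positions are of GRCm38 with GENCODE M21 transcripts, counted from 1. The H2-Ab1 tag is the 3'-most site of its transcript, in the 3' UTR in exon 6 of 6 (chr17:34269215-34269235, plus strand), and held 98.3%, 97.6% and 98.5% of the gene's tags at days 0, 1 and 2. The H2-Eb1 tag is also in a 3' UTR (chr17:34315944-34315964, plus strand, exon 6 of 6) and is the 3'-most of 4 sites in the transcript H2-Eb1-201, 1 of several annotated forms. The Tap1 tag is the 3'-most of 15 sites, in the 3' UTR (chr17:34197056-34197076, plus strand, exon 11 of 11). These 3 genes were thus counted at the end of their transcripts.

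The other members were counted inside their transcripts. The H2-Aa tag lies in coding exon 1 of 5 (chr17:34287699-34287719, minus strand), 105 bases into a transcript of 1128 bases, and is the most upstream of its 4 sites. The B2m tag spans the start of the coding sequence in exon 1 of 4 (chr2:122147737-122147757, plus strand), the most upstream of 5 sites. The Tap2 tag is the third of 13 sites from the 3' end, in coding exon 8 of 12 (chr17:34214026-34214046, plus strand), and the Tapbp tag the fifth of 8, in coding exon 5 of 8 (chr17:33926265-33926285, plus strand). Tags of the 3'-most sites of these 4 genes were not analysed here, so their counts say little about how abundant the transcripts were and can be compared between days only for the site counted.

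**Figure D1:**
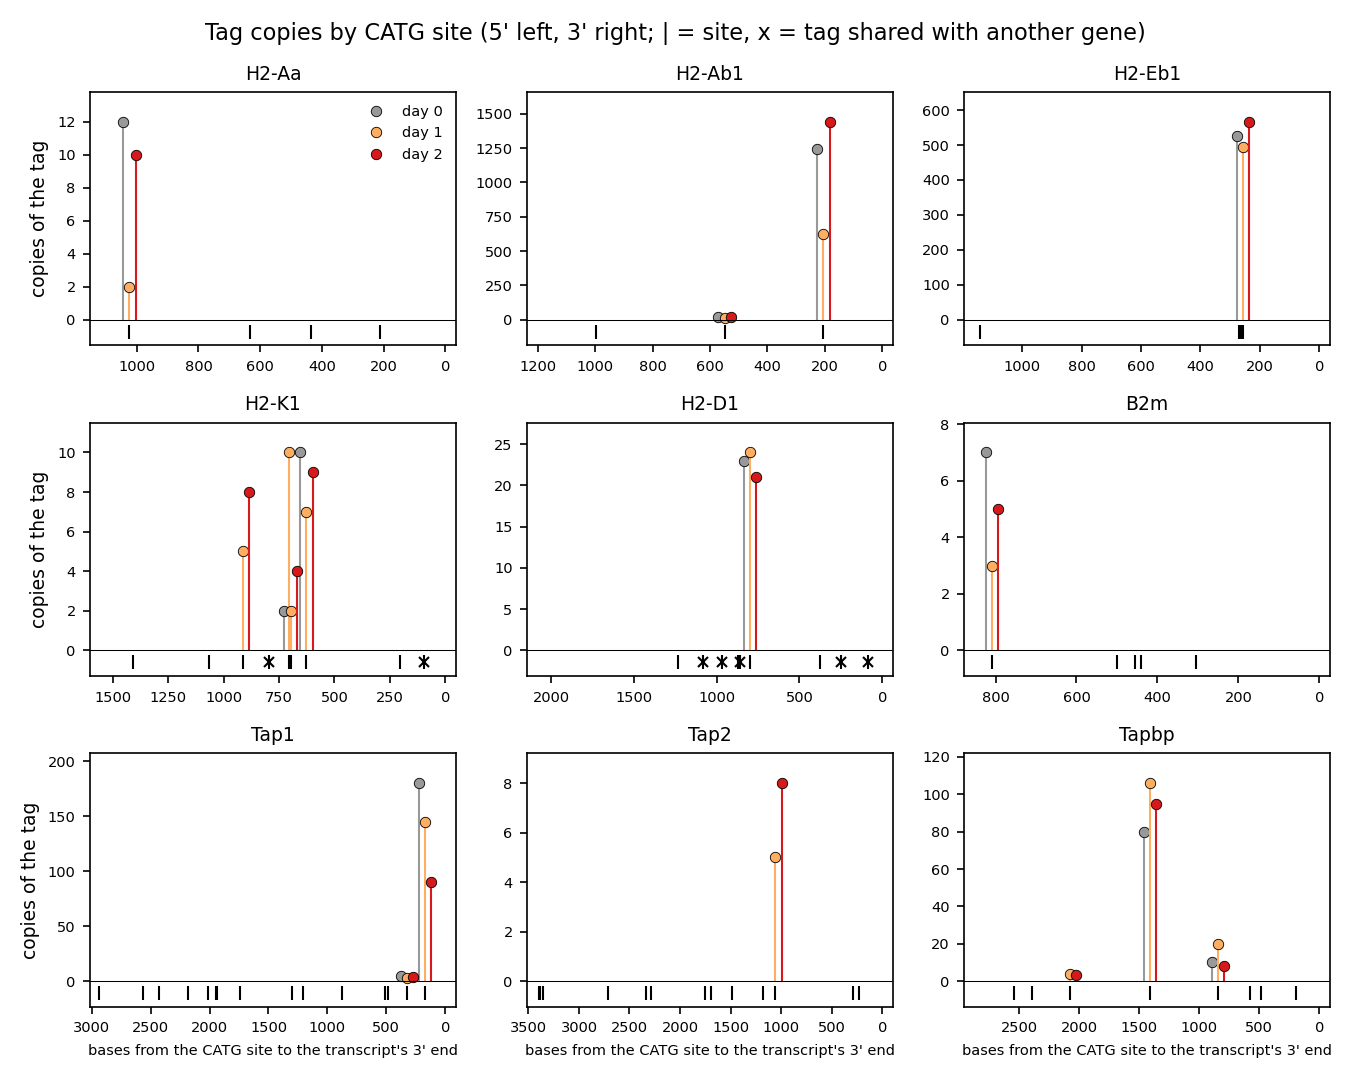
Copies of each tag (y axis, tags, linear) by its distance in bases from the CATG site to the 3' end of the transcript (x axis, 5' at the left), for 9 genes, with grey, orange and red points for days 0, 1 and 2, shifted slightly apart. Ticks mark every CATG site and crosses those whose tag another gene shares. H2-Ab1, H2-Eb1 and Tap1 have their tags at a 3' site, while H2-Aa and B2m have theirs at the most upstream site.

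For the class I heavy chains the sequence of a tag decides whether its count can be given to 1 gene. The 3'-most tag of both H2-K1 and H2-D1 is catggattgagaatgcttaga, which is the same in the 2 genes and cannot separate them, and it was not analysed here. Other sites have tags that only 1 of the 2 genes carries, among them a 3' UTR site in each gene with no copies listed. The site with the most copies in each, over the 3 days together, is a coding site in exon 5 of 8. Capitals mark the bases in which a tag differs from that of H2-K1, counted from 1 at its 5' end.
H2-K1: catggcgaccgttgctgttct
H2-D1: catggTgaTcgttgctgttct
H2-Q4: catggcgaAcgtAgctgttct
The H2-D1 tag (chr17:35266212-35266232, plus strand) differs from the H2-K1 tag (chr17:33997112-33997132, minus strand) by 2 substitutions, C6T and C9T, and that of H2-Q4, a class I gene of the Q region (chr17:35383286-35383306, plus strand), by C9A and T13A. All 68 tags of H2-D1 were this tag, and the cluster that holds it is described in the tables as a locus of the Q region, although its tag matches H2-D1 alone. H2-K1 had 26 tags here and 31 at 3 other coding sites, and 2 more matched no transcript.

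The test covered 13812 clusters, those that reached 15 tags over the libraries together, and 8 of them were members. A ratio of 2 libraries was called when an exact conditional binomial test gave an adjusted p of 0.001 or less, Benjamini-Hochberg adjusted over all these clusters, at a change of 2-fold or more. The test compares the 2 libraries and not the conditions: no difference here has a replicate check, and intervals (95%, Clopper-Pearson) cover counting error only, since PCR copies of a tag cannot be told from separate molecules. Levels are CPM with library sizes corrected by TMM, the trimmed mean of M values, and all ratios are log2 with 0.5 tags added.

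H2-Ab1, the beta chain of I-A, was lower at day 1 than on either other day. It had 1263, 638 and 1465 tags at days 0, 1 and 2, or 449.09, 236.82 and 538.85 CPM. The day 1 library was thus the low one, and days 0 and 2 lay close to each other. Day 2 over day 1 gave a log2 ratio of 1.19 (1.05 to 1.32), at an exact-test adjusted p of 1.8e-70, and this was the one call among the members. Day 1 over day 0 gave -0.92 (-1.06 to -0.78; adjusted p = 1.4e-39 in the exact test), short of the 2-fold minimum. The gene would be called lower there with the libraries scaled to the tags in the tables (-1.05), or with a minimum of 1.5-fold. Day 2 over day 0 gave 0.26 (0.15 to 0.37). In bulk skin, fewer cells that make a transcript and less of it per cell cannot be told apart.

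The 2 sites of H2-Ab1 could be compared. The 3'-most site had 1241, 623 and 1443 copies at days 0, 1 and 2, and a coding site in exon 3 (CATGctggagatgacccctcg, chr17:34267529-34267549, plus strand) had 22, 15 and 22. Both were lowest at day 1, with a log2 ratio of day 2 over day 1 of 1.20 at the first and 0.52 at the second, which rests on few copies.

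H2-Eb1, the beta chain of I-E, had 526, 496 and 567 tags at days 0, 1 and 2, or 187.03, 184.11 and 208.55 CPM. Its levels on the 3 days lay within a narrow range, with a ratio of -0.02 (-0.20 to 0.16) for day 1 over day 0, 0.16 (-0.02 to 0.33) for day 2 over day 0 and 0.18 (0.00 to 0.36) for day 2 over day 1, none of them called. The interval for day 1 over day 0 does not reach the H2-Ab1 value of -0.92.

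Both genes lie on chromosome 17, and their counts can be set against each other inside a library, where no scaling of libraries enters. The ratio of H2-Ab1 tags to H2-Eb1 tags was 2.40 (2.17 to 2.66) at day 0, 1.29 (1.14 to 1.45) at day 1 and 2.58 (2.34 to 2.85) at day 2. The day 1 interval does not overlap the other two, so the counts of the 2 genes did not move together between libraries. This is a ratio of tags, not of transcripts, since the 2 sites need not be cut and copied equally well.

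H2-Aa, the alpha chain of I-A, had 12, 2 and 10 tags at days 0, 1 and 2, all at its most upstream site. The day 1 library was again the lowest, at 0.74 CPM, against 4.27 CPM at day 0 and 3.68 CPM at day 2. Day 1 over day 0 gave a log2 ratio of -2.27 (-5.72 to -0.36; adjusted p = 0.068 in the exact test) and day 2 over day 1 gave 2.06 (0.08 to 5.54; adjusted p = 0.14 in the exact test). With 24 tags in all, neither was called. Summed over the 3 class II chains, the level was 640.4, 421.7 and 751.1 CPM at days 0, 1 and 2, most of it H2-Ab1.

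**Figure D2:**
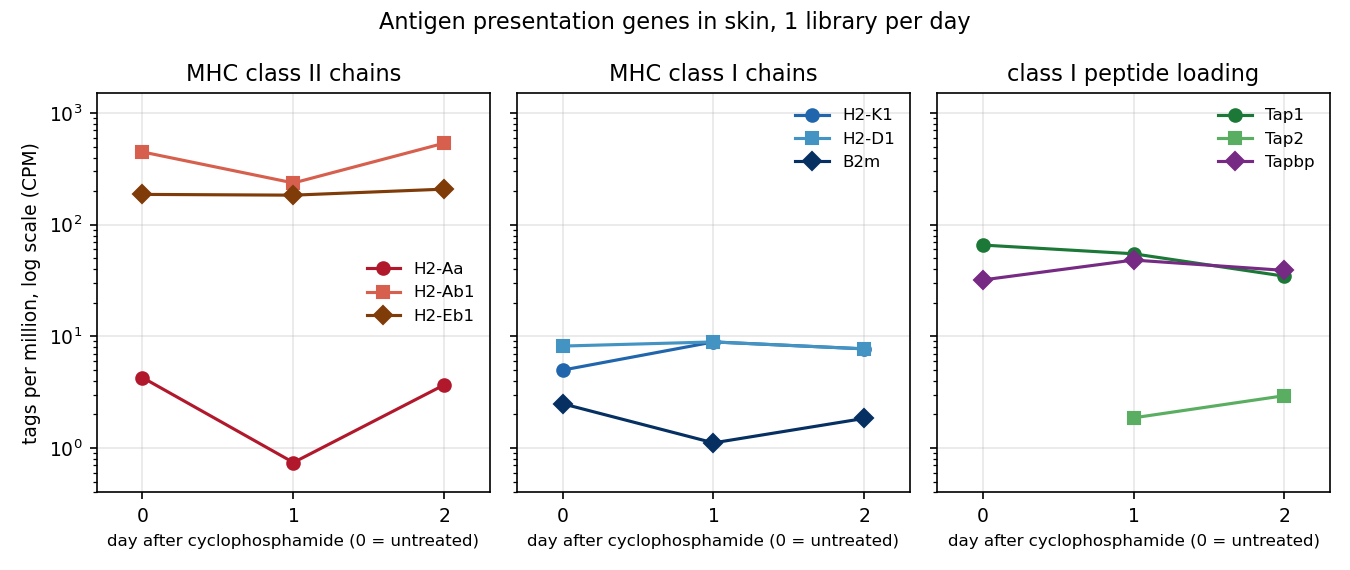
Level of 9 members in CPM (y axis, log scale) at days 0, 1 and 2 (x axis), 1 library a day, so that no error bar can be drawn. H2-Ab1 is at 236.82 CPM at day 1, against 449.09 at day 0, while H2-Eb1 stays between 184.11 and 208.55. Tap2 is not listed at day 0 and has no point there.

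The class I chains were counted too thinly to show any but a large change. H2-K1, a classical heavy chain, had 14, 24 and 21 tags at days 0, 1 and 2, and H2-D1, the other, had 23, 24 and 21. H2-K1 was lowest at day 0, with a log2 ratio of 0.82 (-0.17 to 1.90) for day 1 over day 0 and 0.62 (-0.41 to 1.72) for day 2 over day 0. The H2-K1 counts came from different sites in different libraries: its site in exon 5 had 10, 7 and 9 copies, and a site in exon 4 (CATGccatgtgtaccatcagg, chr17:33997315-33997335, minus strand) was listed at day 1 alone, with 10. H2-D1, at its single site, gave 0.12 (-0.76 to 1.01) for day 1 over day 0, -0.08 (-1.01 to 0.84) for day 2 over day 0 and -0.20 (-1.12 to 0.70) for day 2 over day 1. B2m, the light chain, had 7, 3 and 5 tags, and its intervals were wider still, from -3.74 to 0.97 for day 1 over day 0. None of these ratios was called, and a change of 1.5-fold in any of the 3 genes was not detectable at this depth. Their summed level was 15.6, 18.9 and 17.3 CPM at days 0, 1 and 2.

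Tap1, one chain of the peptide transporter, was lowest at day 2. It had 185, 148 and 94 tags at days 0, 1 and 2, or 65.78, 54.94 and 34.57 CPM, so that day 1 lay between the other two days. Day 2 over day 0 gave a log2 ratio of -0.92 (-1.30 to -0.56; adjusted p = 3e-06 in the exact test), day 2 over day 1 gave -0.67 (-1.06 to -0.29; adjusted p = 0.0041 in the exact test) and day 1 over day 0 gave -0.26 (-0.58 to 0.06). None reached the 2-fold minimum, and at 1.5-fold Tap1 would be called lower at day 2 than at day 0. Its 3'-most tag had 180, 145 and 90 copies, and a second 3' UTR site 5, 3 and 4.

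Tapbp, or tapasin, was highest at day 1, with 90, 130 and 106 tags at days 0, 1 and 2. Its log2 ratio was 0.59 (0.19 to 1.00; adjusted p = 0.018 in the exact test) for day 1 over day 0, 0.28 (-0.13 to 0.71) for day 2 over day 0 and -0.31 (-0.69 to 0.07) for day 2 over day 1, none called. The site in exon 5 had 80, 106 and 95 copies and a 3' UTR site (CATGcctagaggtcttttttt, chr17:33928449-33928469, plus strand) 10, 20 and 8, both highest at day 1. Tap2, the other chain of the transporter, was not listed at day 0 and had 5 tags at day 1 and 8 at day 2. Since the smallest copy number in the tables is 2, an unlisted gene need not have had 0 tags, and with 13 tags Tap2 was under the minimum for the test. The ratio of Tap1 tags to Tapbp tags inside a library was 2.06 (1.59 to 2.67) at day 0, 1.14 (0.89 to 1.45) at day 1 and 0.89 (0.66 to 1.18) at day 2, so the day 0 interval lay above the other two. The summed level of the 3 loading genes was 97.8, 105.0 and 76.5 CPM at days 0, 1 and 2.

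Tap1 and the immunoproteasome subunit Psmb9, which was singled out here after its values were seen, start beside each other on opposite strands. In RefSeq's windows from 250 bases before to 50 after a gene's start (GRCm38.p6), 275 of 300 bases are the same stretch. That of Tap1 (chr17:34187306-34187605, plus strand) is shown because both genes read away from it, with the motif CCAAT, searched on both strands, in capitals.
Tap1 promoter: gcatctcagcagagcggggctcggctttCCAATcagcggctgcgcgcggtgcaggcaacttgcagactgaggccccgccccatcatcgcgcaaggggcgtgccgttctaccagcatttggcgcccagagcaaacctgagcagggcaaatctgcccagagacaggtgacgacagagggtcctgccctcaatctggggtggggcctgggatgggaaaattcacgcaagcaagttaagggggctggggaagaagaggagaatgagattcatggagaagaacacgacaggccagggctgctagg
CCAAT occurs in 37.4% of the 32851 windows of that length in the table. Of the members, windows were given for H2-Aa, H2-Eb1, H2-K1, H2-D1, B2m, Tap1 and Tapbp, each of which held CCAAT. The other motif searched, TTCNNNGAA with N any base, occurs in 8.3% of all windows. It was in none of these members' windows and not in that of Psmb9. Psmb9 had 196, 154 and 152 tags at days 0, 1 and 2, with a log2 ratio of -0.29 (-0.60 to 0.03) for day 1 over day 0 and -0.32 (-0.63 to 0.00) for day 2 over day 0. The ratio of Tap1 tags to Psmb9 tags was 0.94 (0.77 to 1.16) at day 0, 0.96 (0.76 to 1.21) at day 1 and 0.62 (0.47 to 0.81) at day 2, so the day 2 interval overlaps those of both other days narrowly.

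Over the 8 members tested, day 1 over day 0 gave 0 called higher and 0 lower, beside 1.43% of all clusters called higher and 1.38% lower. Their median log2 ratio was -0.14, beside -0.02 over all clusters, and 3 were above 0 and 5 below. At an unadjusted p under 0.05, 3 members (H2-Aa, H2-Ab1 and Tapbp) and 4241 of all clusters passed. Day 2 over day 0 likewise gave 0 and 0, beside 3.42% higher and 3.03% lower, with a median of 0.04 beside 0.01. Without adjustment, 2 members (H2-Ab1 and Tap1) and 5013 of all clusters passed. Day 2 over day 1 gave 1 called higher, H2-Ab1, and 0 lower, beside 1.82% higher and 1.09% lower, with a median of -0.01 beside -0.01. There 4 members (H2-Aa, H2-Ab1, H2-Eb1 and Tap1) and 4033 of all clusters passed unadjusted. The 3 comparisons share libraries and are not independent of each other.

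**Figure D3:**
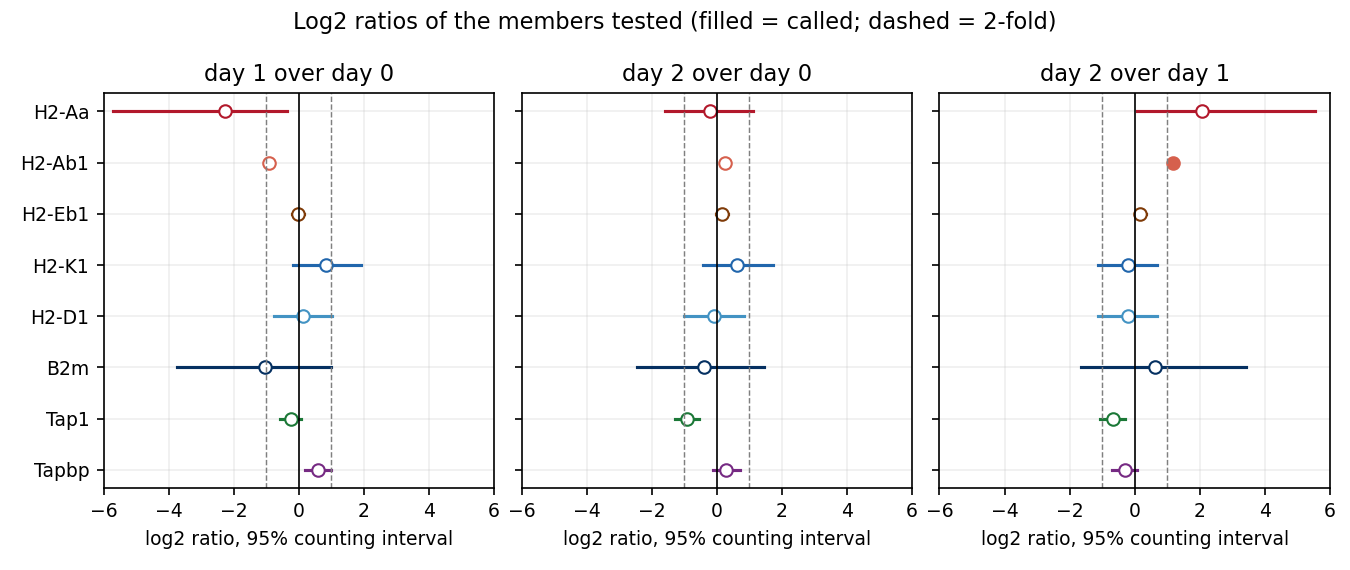
Log2 ratios of the 8 members tested (x axis) in 3 comparisons, each the later day over the earlier, with 95% counting intervals as lines, filled points for calls and dashed lines at 2-fold. The 1 filled point is H2-Ab1 for day 2 over day 1, at 1.19. The intervals of H2-Aa and B2m span several units because they rest on 24 and 15 tags.

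Calls among all clusters depended on the scaling in their direction. For day 1 over day 0 there were 197 called higher and 190 lower with TMM, against 128 and 338 with the tags in the tables as library sizes and 156 and 265 with all tags the authors kept. For day 2 over day 1 the splits were 251 and 150, 371 and 100, and 347 and 106. The tags in the tables as library sizes moved the median of all clusters to -0.15 for day 1 over day 0 and to 0.12 for day 2 over day 1. The ratios of H2-Eb1 and H2-D1 for day 1 over day 0, at -0.02 and 0.12, therefore have no direction.

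Other MHC class II genes were measured in a list of 7, chosen for their function with earlier results of these data known. The peptide exchange factor H2-DM, of alpha chain H2-DMa, loads class II molecules in endosomes, and H2-O inhibits it. H2-DMa had 150, 84 and 93 tags at days 0, 1 and 2, at 1 site (CATGggcattgtcttcttcct, chr17:34138489-34138509, plus strand). Its day 1 and day 2 libraries were both below day 0, with a log2 ratio of -0.77 (-1.18 to -0.38) for day 1 over day 0 and -0.64 (-1.03 to -0.26) for day 2 over day 0, not called (adjusted p = 0.00074 and 0.0045 in the exact test). At a minimum of 1.5-fold it would be called lower in day 1 over day 0. H2-DMb2 had 9, 5 and 7 tags and H2-Ob, a chain of H2-O, had 6 at day 0, 6 at day 2 and was not listed at day 1. Of the 7 genes 5 had a cluster and 2 were tested, 0 called in any comparison, and H2-Ea-ps and H2-Eb2 had no cluster. Their medians were -0.75, -0.47 and 0.28 for day 1 over day 0, day 2 over day 0 and day 2 over day 1. The ratio of H2-Ab1 tags to H2-DMa tags was 8.42 (7.10 to 10.04) at day 0, 7.60 (6.04 to 9.65) at day 1 and 15.75 (12.77 to 19.64) at day 2. H2-DMa was thus below its day 0 level at day 2 while H2-Ab1 was not.

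Of the class II regulators and endosomal enzymes, 9 of 10 were tested. None was called in day 1 over day 0 (median 0.16), 1 was called higher in day 2 over day 0 (median 0.32) and 1 higher in day 2 over day 1 (median 0.35). Ctss, cathepsin S, which trims the invariant chain from class II molecules, had 9, 11 and 34 tags at days 0, 1 and 2, so day 2 stood apart. It rose at day 2 over day 0, by 1.91 (0.88 to 3.21; adjusted p = 0.00075 in the exact test), a call that is lost at an adjusted p of 0.0011 when clusters of any count are tested. Lgmn, the asparagine endopeptidase that starts that trimming, had 248, 158 and 320 tags and was lowest at day 1, as H2-Ab1 was. Its ratio of day 2 over day 1 was 1.00 (0.73 to 1.29; adjusted p = 7.8e-12 in the exact test), just at 2-fold, so that small shifts end the call. It fell short of the fold minimum with DESeq2 size factors (0.99), at the 3'-most site alone (0.93), with clusters of any count tested and with the clusters of a gene summed (1.00 after rounding in both). Of the ubiquitin ligases that take class II molecules from the surface, March8 had 264, 339 and 319 tags. Rfxap, a subunit of the RFX complex that binds class II promoters, had 74, 68 and 75. Ciita, the class II transactivator, singled out for its role after its values were seen, had 11, 8 and 13 tags, with a ratio of -0.38 (-1.92 to 1.05) for day 1 over day 0. Ifi30 had no cluster.

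Among 17 other class I and class I-like genes, 9 had a cluster and 6 were tested. Day 1 over day 0 gave 1 called higher and 1 lower (median -0.06), day 2 over day 0 gave 2 higher and 1 lower (median 0.34), and day 2 over day 1 gave none (median 0.11). H2-Q4, a non-classical class I gene, had 60, 20 and 14 tags at days 0, 1 and 2. Both treated libraries were below day 0, and it fell at day 1 over day 0 (log2 interval -2.33 to -0.77; adjusted p = 0.00022 in the exact test). At day 2 over day 0 it fell by 2.01 (-3.01 to -1.19; adjusted p = 1.6e-06 in the exact test). Of its tags 57, 20 and 14 were at its 3'-most site (CATGtgaaaggatgcgatgcg, chr17:35384300-35384320, plus strand), which no other gene shares. That site is the 3'-most of the transcript H2-Q4-201. By the authors' own numbering of sites, H2-Q4 had too few tags at the 3'-most site for the test. H2-Q6, beside H2-Q4, had 58, 36 and 38 tags, with -0.62 (-1.27 to 0.00) for day 1 over day 0, not called. Fcgrt, the neonatal Fc receptor, a class I-like chain that binds antibody, had 296, 402 and 677 tags, each day above the one before, and rose at day 2 over day 0 by 1.24 (1.04 to 1.44; adjusted p = 4.7e-36 in the exact test). The genes H2-Q1, H2-Q2, H2-T3, H2-T10, H2-T23, H2-T24, H2-M5 and Cd1d1 had no cluster.

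H2-M3, a class I-like molecule that presents formylated peptides, had 34, 87 and 176 tags at days 0, 1 and 2. It rose by 1.40 (0.83 to 2.03; adjusted p = 7e-06 in the exact test) at day 1 over day 0 and by 2.40 (adjusted p = 1.1e-23 in the exact test) at day 2 over day 0. Its tags are shown because they run past the annotated end of the transcript, and the bases beyond that end are in capitals.
H2-M3, first tag: catgaaaactcAAAAAAAAAA
H2-M3, second tag: catgaaaactcACAAAAAAAA
The first had 26, 62 and 111 copies and also fits the end of a Csnk1e transcript, and the second had 8, 23 and 62, so the gene is uncertain. Tags of any gene that end in 7 or more A moved in the same way: of 249 such tags with 50 or more copies, 217 were above 0 in day 1 over day 0, with a median log2 ratio of 0.53, and 243 in day 2 over day 0, with a median of 1.00. They made up 1.9%, 3.1% and 3.8% of the libraries at days 0, 1 and 2, and their part in the H2-M3 counts was not tested. None of the tags of the 9 members ends in such a run, and without these tags H2-M3 had too few for the test.

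**Figure D4:**
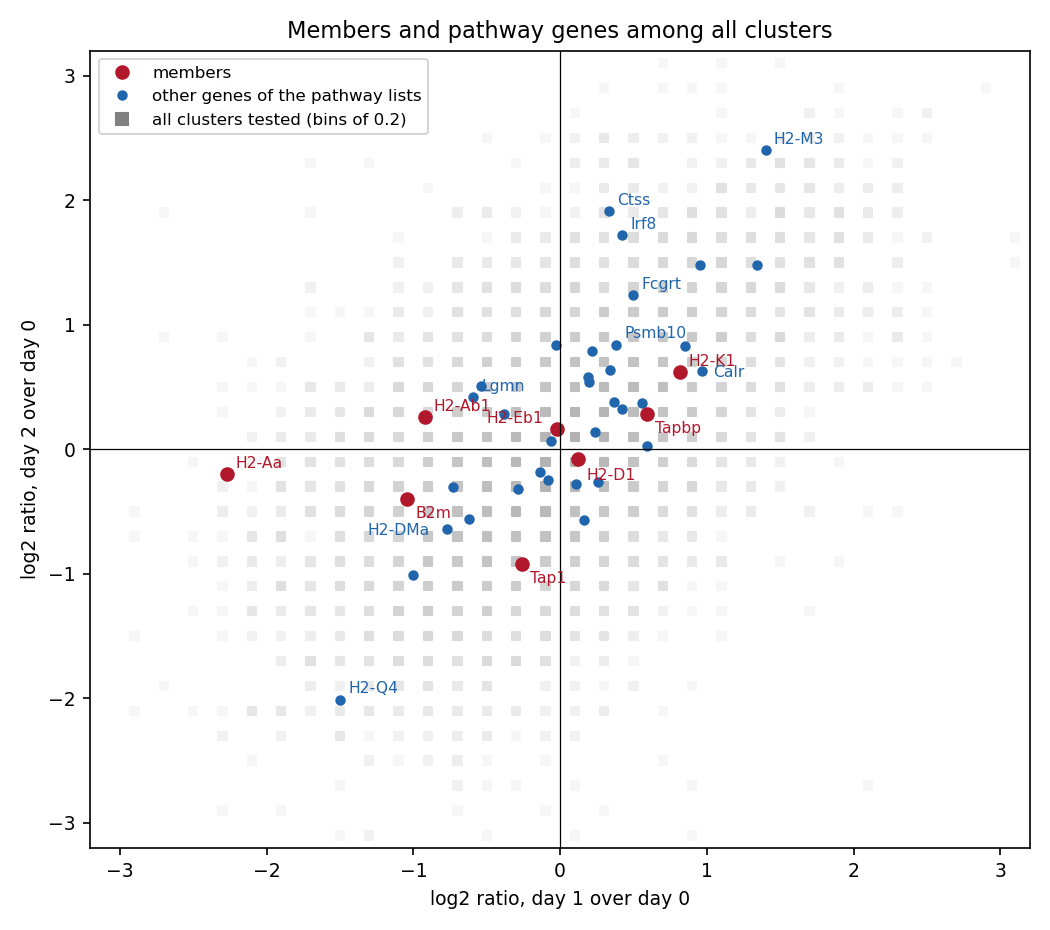
Log2 ratio of day 1 over day 0 (x axis) against that of day 2 over day 0 (y axis) for 8 members (red), tested genes of the pathway lists (blue) and all clusters tested (grey squares, in bins of 0.2, darker for more clusters), with 144 clusters beyond 3.2 on either axis left out. The 2 ratios share the day 0 library, which alone spreads points along the rising diagonal. H2-Ab1 is at -0.92 and 0.26, and H2-Q4 and H2-M3 lie outside most of the clusters.

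Of the immunoproteasome and loading partners of class I, 11 of 12 had a cluster, 9 were tested and 0 were called in any comparison, with medians of 0.22, 0.38 and -0.03 for day 1 over day 0, day 2 over day 0 and day 2 over day 1. Calr, calreticulin, a chaperone of the loading complex, had 2384, 4466 and 3568 tags at days 0, 1 and 2 and was highest at day 1, with 0.97 (0.90 to 1.04) for day 1 over day 0. Canx, calnexin, which folds new heavy chains, had 1633, 2023 and 2061, with 0.37 (0.28 to 0.47). Psme3, a proteasome activator subunit, had 673, 973 and 664, with 0.59 (0.45 to 0.74). The interferon-induced subunits of the immunoproteasome, singled out for their role after their values were seen, did not follow 1 course. Psmb8 had 54, 47 and 46 tags, Psmb9 is given above with Tap1, and Psmb10 had 259, 324 and 448, highest at day 2 with 0.84 (0.62 to 1.07) over day 0. At a minimum of 1.5-fold, Calr would be called higher in both comparisons with day 0. So would Psme3 in day 1 over day 0 and Psmb10 in day 2 over day 0. Pdia3 had no cluster.

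Of the regulators of class I genes, Irf9, a DNA-binding factor of the interferon response, had 98, 139 and 123 tags at days 0, 1 and 2, and Irf2, another factor of interferon-responsive promoters, had 55, 67 and 83, neither called. Nlrc5, the class I transactivator, singled out for its role after its values were seen, had 68, 78 and 55 tags, with 0.26 (-0.23 to 0.75) for day 1 over day 0. The costimulation genes were too low to test in most cases: Cd80 had 3, 6 and 9 tags, Cd274 had 5, 9 and 9, and Cd40 was not listed at day 0 and had 2 and 9 tags at days 1 and 2. Of their 6 genes 4 had a cluster and 2 were tested, 0 called, and Cd86 and Icosl had no cluster.

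Markers of the cells that present antigen moved unlike each other, and their part in the members' values was not tested. The 12 macrophage and monocyte markers, 10 of them tested, summed to 454.4, 472.9 and 732.0 CPM at days 0, 1 and 2. Of these 10, 2 were called higher in day 1 over day 0, 5 in day 2 over day 0 and 4 in day 2 over day 1, with 0 lower. Cd68, a lysosomal protein of macrophages, had 67, 154 and 333 tags, rising on both days, while Mrc1, the mannose receptor, had 162, 134 and 465 and Ms4a7 51, 63 and 190, which were high at day 2 alone. Fcgr1, C1qc and Lyz2 were the others called, at 20, 54 and 89, at 38, 47 and 89 and at 47, 33 and 77 tags. The Fcgr1 call for day 1 over day 0 is lost with the tags in the tables as library sizes (adjusted p = 0.0016 in the exact test) and with tags of 1 gene alone (0.0014), which leaves Cd68 as the 1 call of that comparison. C1qa and Cd14 had no cluster. H2-Ab1, with 1263, 638 and 1465 tags, shared the high day 2 value with Mrc1 and Ms4a7 but not their low day 0 value. Adgre1, named here after its values were seen, was lowest at day 1, with 84, 43 and 72 tags. Its ratio for day 1 over day 0 was -0.90 (-1.47 to -0.36), near the -0.92 of H2-Ab1, and was not called. Of the 10 tested, 5 were above 0 and 5 below in that comparison.

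The 11 dendritic cell markers summed to 121.6, 85.0 and 105.2 CPM at days 0, 1 and 2, lowest at day 1 as the class II sum was. Of these, 6 were tested and 0 called, with medians of -0.32 for day 1 over day 0 and -0.29 for day 2 over day 0. Flt3, a receptor that defines dendritic cells, had no cluster. The 6 tested, named here after their values were seen, did not share 1 course. Sirpa, the largest part of the sum, was at 60.09, 41.20 and 57.01 CPM at days 0, 1 and 2. Cd209d, at 34.13, 19.30 and 18.39 CPM, and Cd209a, at 17.42, 11.51 and 11.77 CPM, stayed near their day 1 level at day 2. Batf3 was lowest at day 2, and Itgax and Zbtb46 were lowest at day 0. The Langerhans cell markers and the dermal collagens that follow were picked after their values were seen. Cd207, langerin of Langerhans cells, had 44, 42 and 27 tags, with a ratio of -0.65 (-1.40 to 0.07) for day 2 over day 0, and Epcam, which follicle cells also make, 678, 945 and 713. The B cell markers summed to 29.9, 21.5 and 15.1 CPM, nearly all of it Blnk, which fell at day 2 over day 0 by 1.11 (-1.73 to -0.54; adjusted p = 0.00059 in the exact test) and which other blood cells make too. That call is lost with all kept tags as library sizes (-1.07) or with the clusters of a gene summed (-1.03). The defining B cell markers Ms4a1 and Pax5 had no cluster. T cell markers summed to 141.9, 209.4 and 305.7 CPM, nearly all of it Thy1, which fibroblasts of the dermis also make and which rose at day 2 over day 0 by 1.14 (0.97 to 1.32; adjusted p = 1.7e-37 in the exact test). Cd3e, Cd3g, Cd8a and Cd247 had no cluster. All 3 dermal collagens of the whole skin list had their lowest CPM at day 1, by unequal amounts. Col1a2 had 4184, 2121 and 2968 tags, with -0.92 (-0.99 to -0.84) for day 1 over day 0. Col3a1 had 751, 392 and 659, with -0.88 (-1.06 to -0.70), and Col1a1 had 1064, 909 and 1179, with -0.17 (-0.29 to -0.04). None was called, though Col1a2 and Col3a1 would be called lower with the tags in the tables as library sizes, at the 3'-most site alone (-1.06 and -1.57) or with a minimum of 1.5-fold. The value of H2-Ab1 in the same comparison, -0.92, lay near those of Col1a2 and Col3a1 and well below that of Col1a1, and whether the share of dermis in the piece of skin differed was not tested.

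Genes with a like course over the 3 libraries were found among 3647 named genes of 50 CPM or more in at least 1 library, by the distance between their pair of ratios to day 0 and that of a summed group. Both ratios share the day 0 library, and 3 libraries give only 2 ratios, so nearness is easily had. Nearest to the class II sum (-0.60 for day 1 over day 0 and 0.23 for day 2 over day 0) were Kpnb1, Smim10l1, Klf10 and Pkn2, within 0.043, and 9 genes lay within 0.1. Kpnb1, an importin, had -0.60 and 0.24. Nearest to the class I chains (0.27 and 0.14) were Add1, Ddx5, Flrt2 and Atf6, and nearest to the loading genes (0.10 and -0.35) were Rab11a, Cdc34 and Nxn, with 90 and 70 genes within 0.1.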

How the data were processed

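Tag counts were analysed as deposited by the authors, who per the file headers list each UniGene cluster with its count of tags, the tags in it and their copy numbers and CATG sites. The deposited TPM values are these counts per 1000000 of all tags kept; worked back, the libraries had 6030093 (day 0), 6070058 (day 1) and 5666060 (day 2) such tags. The tables hold 45.3%, 47.1% and 46.5% of them, and TPM served only for an alternative scaling. Per the labels' protocols, mRNA was selected on oligo(dT) beads before its cDNA was cut with NlaIII and MmeI. The sources used here do not give the aligner, the mismatches it allowed or the UniGene build.

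Clusters were named by exact sense match of their 21-base tags to GENCODE M21 transcripts (GRCm38): a gene named a cluster when it had 80% or more of the matched tags and 50% or more of all tags there. Of 20595 clusters, 15183 were named by tags of 1 gene, 774 by shared tags and 155 by RefSeq accession, and 4483 remained unnamed but entered the tests. Where a gene had several clusters, the one with the most tags was used. Sites are placed in the annotated transcript in which the gene's most counted tag lies nearest the 3' end. This choice favours a 3'-most place for that tag. A tag listed in 1 library but not in another entered the test as 0 there, and no fold is given against such a value.

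Libraries were scaled by TMM in edgeR 4.0.16 (R 4.3.3; factors 1.03, 0.94 and 1.03 at days 0, 1 and 2). With 1 library a group edgeR's quasi-likelihood test has no residual degrees of freedom, so each pair of counts was tested by an exact binomial test conditional on their sum, two-sided (scipy 1.17.1). The calling rule is given in the text. The test was run on simulated counts with counting error alone (Poisson) and no variation between animals. That check therefore says nothing about false calls from differences between animals. Promoter windows are from RefSeq (GRCm38.p6). The members and gene lists were chosen with earlier results of these data known. Named are all members; of each pathway list the genes called and the 3 of highest mean level; of each marker list the genes called and those with no cluster; and for each of 3 groups of members the 4 genes of nearest course. Some genes under this rule are not reported here. Alternatives were 3 scalings (one with DESeq2 1.42.0 size factors), other count minimums, tags of 1 gene, the 3'-most site, a pseudocount of 1, clusters of a gene summed, other thresholds, edgeR's exact test with an assumed variation and, added after seeing the data, tags ending in 7 or more A left out and 2 other scalings of the summed levels.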

Additional observations from a re-analysis of the deposited data

Results flagged for a closer look

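Both H2-Ab1 and Lgmn stood out because their ratio to day 0 had one sign at day 1 and the other at day 2, with the difference between the days itself past the test. H2-Ab1 was at -0.92 for day 1 over day 0 and 0.26 for day 2 over day 0, and its log2 ratio of day 2 over day 1 was 1.19 (adjusted p = 1.8e-70 in the exact test of 2 libraries). Lgmn was at -0.59 and 0.42, and its ratio of day 2 over day 1 was 1.00 (adjusted p = 7.8e-12 in the exact test). Both differences rest on 1 library a day.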

How the results depend on the processing

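No paired analysis was possible because each group has 1 library, and for the same reason no library could be left out. The 1 call among members, H2-Ab1 higher at day 2 over day 1, was made under every alternative but 2, with log2 ratios of 1.17 to 1.32. In those, where edgeR's exact test was given a variation between animals of 0.2 or 0.4 (coefficient of variation, assumed), 0 members were called, at an adjusted p of 0.27 and 1 for H2-Ab1. For day 1 over day 0, 1 member (H2-Ab1, lower) was called with the tags in the tables as library sizes and 1 (again H2-Ab1) at a minimum of 1.5-fold, and for day 2 over day 0, 1 (Tap1, lower) at 1.5-fold. Of all clusters, day 1 over day 0 gave 387 calls, and 774 at an adjusted p of 0.05, 1071 at 1.5-fold, 29 at an assumed variation of 0.2 and 0 at 0.4. Day 2 over day 0 gave 892, and 1463, 1642, 245 and 6 under the same alternatives, and day 2 over day 1 gave 401, and 779, 906, 90 and 2. The calls of Ctss, Lgmn, H2-Q4, H2-M3 and Fcgrt and of the macrophage markers Cd68, Fcgr1, Mrc1, C1qc, Lyz2 and Ms4a7 were all lost at 0.4. The same held for Blnk and Thy1. At 0.2, H2-Q4 (adjusted p = 0.42 in edgeR's exact test), H2-M3 (0.37), Cd68 (0.4) and Fcgr1 (0.46) already lost their calls for day 1 over day 0. So did Ctss (0.12), Fcgrt (0.12), C1qc (0.21), Blnk (0.34) and Thy1 (0.16) for day 2 over day 0. For day 2 over day 1, Lgmn (0.56), Cd68 (0.42), Lyz2 (0.51) and Ms4a7 (0.092) lost theirs. The other calls of these genes, and those of Mrc1, were kept at 0.2. The class II sum at day 1 was 397.3 CPM with the tags in the tables as library sizes, against 421.7. Of 177 recomputed ratios of members, 175 kept their sign and side of the threshold; H2-Ab1 for day 1 over day 0 was called with the tags in the tables as library sizes, and H2-D1 for the same days was at 0.00 there. Depth limited H2-Aa, H2-K1, H2-D1, B2m and Tap2 most, and the assumed variation is not measured in these data.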
